A study of Homo sapiens with 48 samples.

Results

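The mitochondrial genome of human cells encodes the core membrane subunits of the respiratory chain, and 10 of its mRNAs were followed here in 2 neuroblastoma cell lines. The members were MT-ND1, MT-ND2, MT-ND4, MT-ND5 and MT-ND6 of complex I, MT-CYB of complex III, MT-CO1, MT-CO2 and MT-CO3 of complex IV, and MT-ATP6 of the ATP synthase. They were taken by gene name from the counted genes, as 10 of the 13 protein-coding mitochondrial genes and of 19923 genes in all, and all 10 passed the filter on low counts in both lines. Kelly and NGP, both wild type in the labels and known to carry amplified MYCN, were grown with DMSO (the solvent) or with 8 uM STM2457, an inhibitor of the RNA methyltransferase METTL3, for 3 or 6 days. Each was then sampled at 0, 3 and 6 h of 10 ug/ml actinomycin D, so that every library at 3 or 6 h carried this drug and the 0 h libraries did not. The 24 groups (each line, treatment, duration and time) had 2 libraries each, 48 in all. The labels name rep1 and rep2 without saying whether they were separate cultures, so the p-values below measure only the spread between libraries.

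Mitochondrial DNA is transcribed from both strands by the polymerase POLRMT into long precursors, which are cut at the tRNAs that lie between the mRNAs. In this text the 9 mRNAs copied from the heavy strand are called heavy-strand mRNAs, and MT-ND6 is the single mRNA copied from the light strand. The complex of LRPPRC and SLIRP is known to protect heavy-strand mRNAs and to aid their polyadenylation. Actinomycin D binds DNA and stops the advance of RNA polymerases, in the nucleus and, where it reaches them, in mitochondria. STM2457 blocks the enzyme that places N6-methyladenosine on nuclear transcripts.

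The ends of the coding sequences are shown because the libraries were made from poly(A)-selected RNA and, for mRNAs with an incomplete stop codon, the tail starts there. Some of the others, such as MT-ND5, run on past the end shown. In 5 of the 10 members the annotated DNA ends in an incomplete stop codon, which the tail completes in the mRNA. The MT-ND6 mRNA, in contrast, is known to carry little or no poly(A) tail. MT-ATP6 is not among the 5, but its last annotated base, position 9207, is also the first of MT-CO3. Whether the MT-ATP6 mRNA holds that base is not shown by these ends. All 10 members matched GENCODE release 44 on GRCh38, and the sequences, read from chromosome M of that build, run 5′ to 3′ on the mRNA's strand. Capitals mark the last codon, or the left-over bases where the stop codon is incomplete.
MT-ND1: cagcattccccctcaaaccTA
MT-ND2: cttttatactaataatcttaT
MT-ND4: tcattaccgggttttcctctT
MT-CYB: acaaaatactcaaatgggccT
MT-CO3: ccatctattgatgagggtctT
MT-ND5: accctactcctaatcacaTAA
MT-ATP6: tacctgcacgacaacacaTAA
MT-CO2: gggcccgtatttaccctaTAG
MT-CO1: cccgtatacataaaatctAGA
MT-ND6: gagattgctcgggggaatAGG
The junction of MT-ND5 and MT-ND6 at chrM:14134-14163 (plus strand, 15 bases from each gene) is shown because both are counted there from opposite strands. The MT-ND5 side is in capitals.
junction: CTCCTAATCACATAAcctattcccccgagc
No base lies between these genes. MT-ND5 covers positions 12337 to 14148 on the plus strand and MT-ND6 covers 14149 to 14673 on the minus strand. Fragments were counted with no strand option, so reads of MT-ND6 and reads antisense to it, such as RNA running on from MT-ND5, cannot be told apart. The strands also differ in base composition: G made up 35.6% of the MT-ND6 mRNA and between 9.50 and 16.2% of the heavy-strand mRNAs.

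Counted depth ranged from 11191254 to 22072202 fragments per library, and the fewest fragments of any member in a library were 5406. ERCC spike-in RNA took 0.266 to 0.671% of fragments. Replicate libraries differed by more than counting noise (chi-square per gene 6.73 to 20.5), so no replicate was a repeat deposit of the other in its group. Of 8 neuroblastoma markers, 7 lay above 1 CPM (fragments scaled to a fixed library total) in all 48 libraries. TH, which encodes tyrosine hydroxylase, fell as low as 0.0506 CPM. The 10 markers of other cells summed to 5.40 to 212 CPM, of which the collagen gene COL1A1 gave 3.79 to 189 CPM, and the leukocyte marker PTPRC was at 0 in 34 libraries. Copies in the nuclear genome with at least 98% identity over 100 bases or more cover 36.8% of MT-ND1, 70.0% of MT-CO3 and all of MT-ND2, MT-CO1 and MT-ATP6, with the longest copies on chromosome 1. Counts of these 5 members are therefore less certain than those of the others.

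The members together took 3.03 to 6.96% of all counted fragments, with a median of 4.48%. Counting error on these shares was small, with 95% Wilson intervals of at most 0.0134 percentage points to either side, which cover counting error only, since PCR copies are not independent molecules. In Kelly cells given DMSO for 3 days the share was 4.995 and 5.53% at 0 h, 3.44 and 3.62% at 3 h, and 3.03 and 3.11% at 6 h of actinomycin D. The 3 times did not overlap, and the share fell at each step. In NGP cells given DMSO for 3 days it was 3.81 and 3.98% at 0 h, 3.82 and 4.18% at 3 h, and 3.44 and 3.77% at 6 h. Here the 0 h and 3 h libraries overlapped and the 6 h libraries lay just under both. After 6 days in DMSO the mean share went from 6.64% ± 0.453 (SD, n = 2) to 4.56% ± 0.0994 in Kelly and from 4.67% ± 0.432 to 3.996% ± 0.271 in NGP over the 6 h. With STM2457 the mean share went from 5.41 to 3.51% in Kelly after 3 days and from 5.65 to 4.10% after 6 days. In NGP after 3 days it went from 4.73 to 3.95%. In each of these courses both 0 h libraries lay above both 6 h ones. With STM2457 for 6 days, the NGP share was 5.06% ± 0.198 at 0 h and 4.86% ± 0.230 at 6 h, and the libraries of these times overlapped. No test was run on the shares, and in bulk RNA a loss of cells and a loss of RNA per cell cannot be told apart.

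MT-CO1, the catalytic core of cytochrome c oxidase, was the largest single contributor, at 22.5 to 45.1% of the members' fragments. MT-ND1, the complex I subunit near the quinone site, moved the other way: in Kelly cells with DMSO for 3 days its part of the members' fragments went from 9.19% ± 0.0943 (SD, n = 2) at 0 h to 1.53% ± 0.0289 at 6 h. In the matching NGP cells it went from 9.08% ± 0.215 to 4.47% ± 0.0391. MT-ND6 gave 1.03 to 3.19% of the members' fragments.

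Levels of different members are compared per length, as CPM per kb scaled by the trimmed mean of M-values (TMM), which equalises the bulk of genes between libraries. Before actinomycin D, in DMSO, MT-CO1 and MT-CO2 had the highest mean levels in both lines and at both durations. In Kelly cells at 3 days MT-CO1 was at 8577 ± 641 CPM per kb (SD, n = 2) and MT-CO2, which carries the copper site that takes electrons from cytochrome c, at 7083 ± 262, without overlap. At 6 days in Kelly they were at 10492 ± 567 and 10469 ± 590 CPM per kb, and overlapped. The low end held MT-ND5 and MT-ND6: 2589 ± 168 and 2429 ± 39.6 CPM per kb in Kelly cells at 3 days. In NGP cells at 3 days the lowest levels were those of MT-ND5 at 1925 ± 31.5, MT-ND2 at 1985 ± 45.3 and MT-ND6 at 2130 ± 6.05 CPM per kb, and none of these neighbours overlapped. Over both lines and durations, 13 of 36 pairs of neighbours in this order overlapped, among them MT-ND1 with MT-ND2 and MT-ND4 with MT-ND1 in Kelly cells at 3 days, and MT-CYB with MT-ATP6 in NGP cells at both durations.

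The basal levels of both lines were compared in a joint fit to DMSO libraries at 0 h. MT-ATP6, the proton-channel subunit of the ATP synthase, differed most at 3 days after MT-ND2: the log2 difference of NGP from Kelly was -1.01 ± 0.08 (SE; adjusted p = 1.75e-17) for MT-ATP6 and -1.10 ± 0.08 for MT-ND2. At 3 days 7 of 10 members were lower in NGP (16% of all genes tested were) and 0 were higher (14%; also 0 at an unadjusted p under 0.05, in DESeq2 and in limma-voom), while MT-ND6, MT-CYB and MT-CO3 did not pass. At 6 days 7 were lower (15.9%) and 1, MT-ND1, was higher at 0.16 ± 0.07 (15.7%; adjusted p = 0.0491). MT-ATP6 at -0.98 and MT-CO2 at -0.95 differed most there. The MT-ND1 call at 6 days was kept in 5 of 10 alternative settings, with a lowest value of 0.02. DESeq2 called 0 members higher at 6 days and limma-voom 3. Scaled to the ERCC spikes instead, 3 members were higher and 2 lower in NGP at 3 days, and MT-ND4 turned from -0.27 to 0.14, MT-ND5 from -0.38 to 0.03, MT-ND6 from -0.15 to 0.26 and MT-CO3 from -0.12 to 0.28. At 6 days under that scaling 0 were higher and 7 lower.

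**Figure D1:**
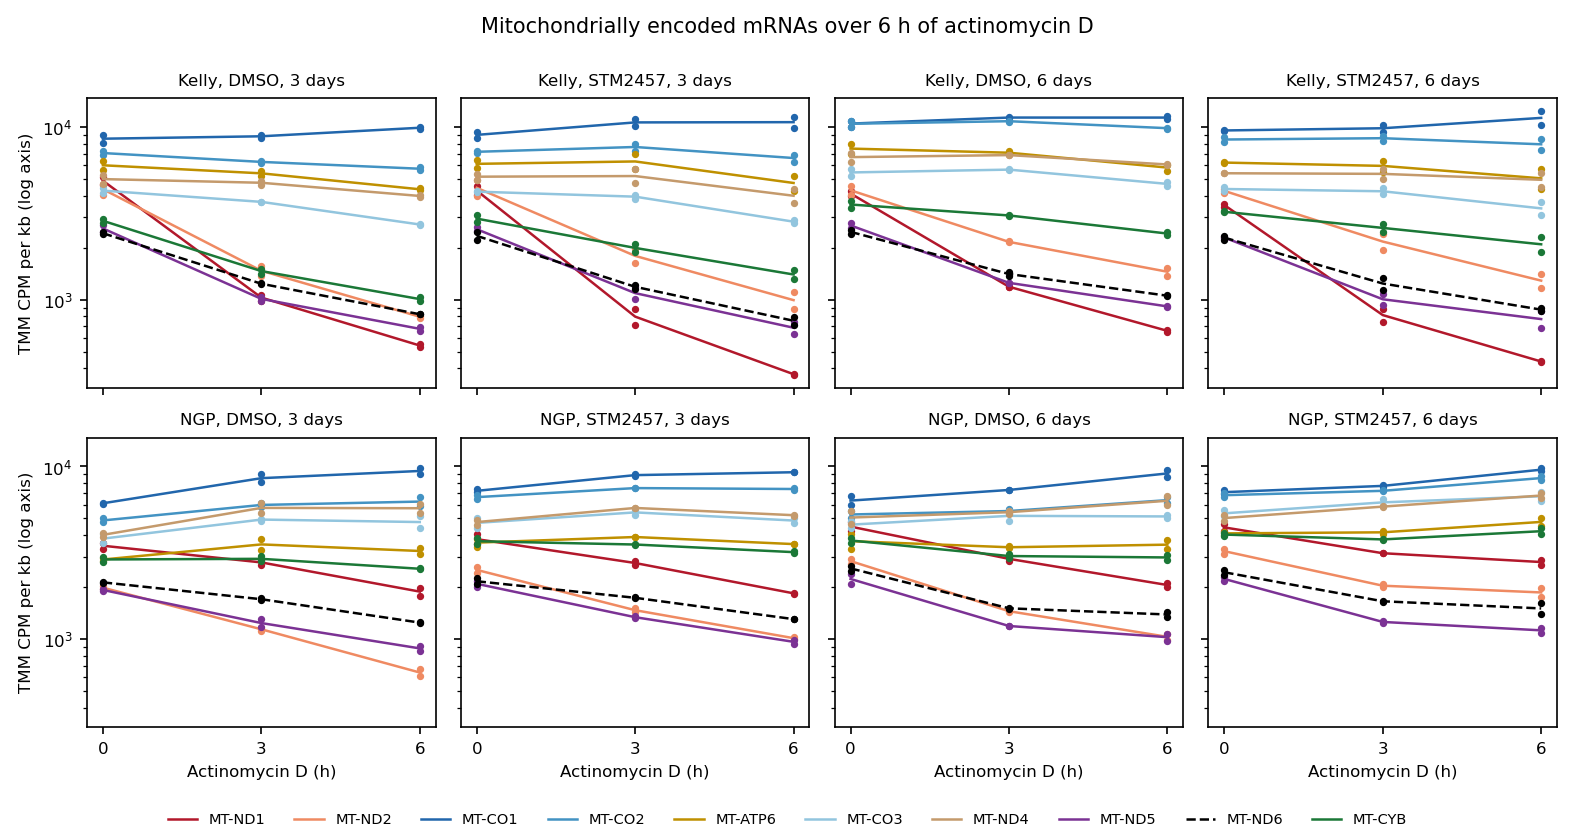
Each panel plots TMM-scaled CPM per kb on a log axis against hours of actinomycin D for 1 line, treatment and duration, with points for libraries (2 per group) and lines through the group means. MT-ND1, MT-ND2, MT-ND5 and MT-ND6 (dashed) slope down in all 8 panels, while MT-CO1 stays on top.

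Over 6 h of actinomycin D the members split by gene. MT-ND1, MT-ND2, MT-ND5 and MT-ND6, all of complex I, fell in both lines at both durations in DMSO, and so did MT-CYB, the cytochrome b of complex III. MT-CO1 rose relative to the bulk of genes but not to the ERCC spikes, and the other 4 had negative values in Kelly and mostly positive ones in NGP. Since TMM sets the bulk of genes equal, these are changes relative to the surviving mRNA. Scaled to the ERCC spikes, the median of all genes itself shifted between 0 and 6 h by -0.34 and -1.18 in Kelly (3 and 6 days) and by -0.81 and -1.10 in NGP, and all 10 members were lower at 6 h in each of these conditions.

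MT-ND1 showed the steepest course in Kelly. With DMSO for 3 days its level was 4945 and 4413 CPM at 0 h, 1021 and 946 CPM at 3 h, and 532 and 506 CPM at 6 h (TMM-scaled CPM here and below). The 3 times were fully separated, with most of the drop in the first 3 h. The log2 change at 6 h was -3.17 ± 0.06 (SE; adjusted p = 1.35e-117, by the quasi-likelihood F-test of edgeR, adjusted after Benjamini and Hochberg over all genes), and -2.64 ± 0.06 after 6 days.

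In NGP the same mRNA declined less. It stood at 3191 and 3449 CPM at 0 h, 2757 and 2558 CPM at 3 h, and 1709 and 1892 CPM at 6 h with DMSO for 3 days. Again no times overlapped. Both 6 h libraries lay above the Kelly ones at 3 h, although each line was scaled in its own fit. The log2 change was -0.88 ± 0.05 (adjusted p = 5.89e-29), and -1.13 ± 0.05 after 6 days.

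MT-ND2, another proton-pumping subunit of complex I, had the steepest course of the members in NGP given DMSO. With DMSO for 3 days it went from 2035 and 2102 CPM at 0 h through 1166 and 1208 CPM at 3 h to 636 and 698 CPM at 6 h. The times did not overlap, and the level dropped in both intervals. Its log2 change at 6 h was -1.63 ± 0.05 in NGP (adjusted p = 1.58e-44) and -2.46 ± 0.06 in Kelly, with -1.46 and -1.57 after 6 days.

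MT-ND5, the longest of the members at 1812 bases, was at 4908 and 4476 CPM at 0 h, 1875 and 1791 CPM at 3 h, and 1264 and 1194 CPM at 6 h in Kelly with DMSO for 3 days. The times were separated. Its log2 change at 6 h was -1.93 in Kelly and -1.13 in NGP after 3 days, and -1.56 and -1.12 after 6 days. MT-CYB differed more by condition, at -1.51 and -0.56 in Kelly (3 and 6 days) and -0.18 and -0.33 in NGP, and passed the test in all 4.

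MT-CO1 did not fall relative to other mRNAs. In Kelly with DMSO for 3 days it was at 13926 and 12527 CPM at 0 h, 13941 and 13379 CPM at 3 h, and 15479 and 15135 CPM at 6 h. The 6 h libraries lay above both others, which overlapped. Its log2 change was 0.21 ± 0.03 in Kelly and 0.62 ± 0.03 in NGP after 3 days and 0.12 and 0.52 after 6 days, but -0.23, -0.18, -1.16 and -0.53 in the same order when scaled to the ERCC spikes (and -0.06 in Kelly after 6 days by library size alone). Against the ERCC-scaled median of all genes these MT-CO1 values were still 0.12, 0.63, 0.02 and 0.57 higher. For the Kelly rises, DESeq2 called the one after 3 days only and limma-voom called 0.

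The changes of MT-CO2, MT-CO3, MT-ND4 and MT-ATP6 lay between -0.65 and -0.08 in Kelly and between -0.07 and 0.51 in NGP, where MT-ATP6 after 6 days was the 1 value under 0. In NGP after 3 days all 4 rose under TMM, by 0.36, 0.32, 0.51 and 0.16 on the log2 scale, and all 4 were lower under ERCC scaling, at -0.44, -0.48, -0.29 and -0.64 (and MT-ATP6 by library size alone, at -0.09). In Kelly after 6 days MT-CO2 did not pass the test at -0.08 (adjusted p = 0.0777), nor did MT-ATP6 in NGP after 6 days at -0.07 (adjusted p = 0.34).

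Counted over members in DMSO, 1 rose and 9 fell in Kelly at 3 days, where 14.4 and 15.6% of all genes rose and fell. At 6 days in Kelly 1 rose (13.2%) and 8 fell (13.3%). In NGP at 3 days 5 rose (19%) and 5 fell (18.4%), and at 6 days 4 rose (18%) and 5 fell (18.7%). The median log2 change of the 10 members was -1.08 and -0.46 in Kelly and -0.01 and -0.20 in NGP, beside medians over all genes between -0.05 and 0.05. Under STM2457 the counts were 1 higher (12.8%) and 9 lower (14%) in Kelly at 3 days, 1 (12.4%) and 8 (14%) at 6 days, 3 (16.6%) and 5 (15.9%) in NGP at 3 days, and 5 (15.7%) and 4 (16.4%) at 6 days. COL1A1, 1 of the 10 markers of other cells, also rose over the 6 h in DMSO, by 1.36 in Kelly at 3 days and by 0.79 and 1.37 in NGP on the log2 scale. The sum of these markers went from 5.40 and 8.22 to 15.9 and 12.7 CPM in Kelly at 3 days and from 97.5 and 109.7 to 212 and 204.8 CPM in NGP at 6 days, and its part in these results was not tested. Calls for the Kelly 6 day changes of MT-ND4 and MT-CO1 were each lost without 1 library: without DMSO 0 h replicate 2, MT-ND4 had an adjusted p of 0.555, and without DMSO 0 h replicate 1, MT-CO1 had 0.116.

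**Figure D2:**
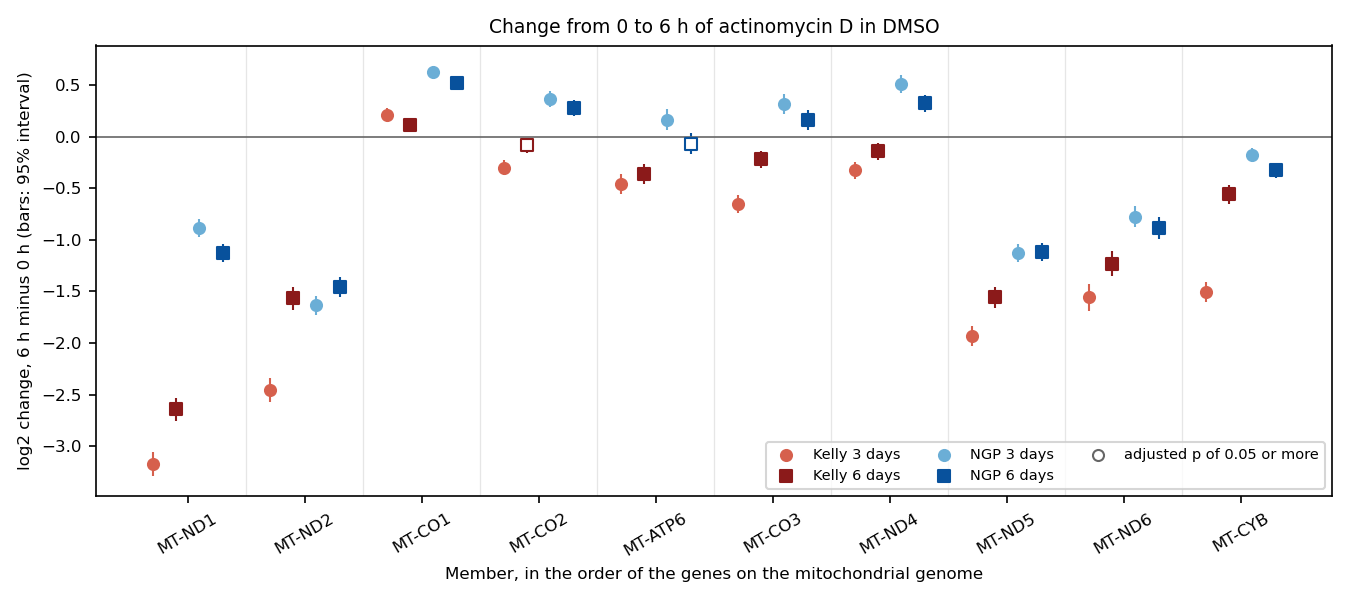
The plot gives the log2 change between the 0 h and 6 h libraries in DMSO for each member in genome order, with 95% intervals as bars, filled points for an adjusted p under 0.05, and colours and shapes for line and duration. MT-ND1 reaches -3.17 in Kelly, and the points above 0 (MT-CO1 in all, and MT-CO2, MT-CO3, MT-ND4 and MT-ATP6 in NGP) fall under 0 when scaled to ERCC spikes, and 3 of them also by library size alone.

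The difference between the lines in the 6 h change was tested as an interaction, a comparison added after its values had been seen. At 3 days all 10 members had a higher (less negative or more positive) change in NGP than in Kelly, where 1.12% of genes did, and 0 had a lower one (0.473%). The largest differences on the log2 scale were those of MT-ND1 at 2.30 ± 0.10 (SE; adjusted p = 1.33e-30) and MT-CYB at 1.34 ± 0.08 (adjusted p = 1.11e-21), and the smallest was that of MT-CO1 at 0.43 ± 0.07. At 6 days 8 of 10 were higher (2.54% of genes) and 0 lower (1.71%), with MT-ND1 again first at 1.55 ± 0.09, while MT-ND2 at 0.14 and MT-ATP6 at 0.33 did not pass. At both durations 0 members were lower at an unadjusted p under 0.05, in DESeq2 and in limma-voom too. As higher, DESeq2 called 10 at 3 days and 7 at 6 days, and limma-voom 7 and 8. Without the dispersion trend, edgeR kept 13 of its 18 calls over both durations. With ERCC scaling 8 passed at 3 days and 9 at 6 days in the same direction. Comparisons of this kind share the 0 h DMSO libraries with the basal comparison of the lines above.

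MT-ND6 fell more than the heavy-strand mRNAs as a group and less than MT-ND5, the heavy-strand mRNA next to it. By the values above MT-ND6 also fell less than MT-ND1 and MT-ND2 in both lines and at both durations, but only MT-ND5 was tested as a single reference. With DMSO for 3 days MT-ND6 was at 1290.0 and 1261 CPM at 0 h, 654 and 645.5 CPM at 3 h, and 433 and 433 CPM at 6 h in Kelly. In NGP it was at 1116 and 1121, then 904 and 882, then 661 and 646 CPM. Times did not overlap in either line. Its log2 change over 6 h was -1.56 and -1.23 in Kelly and -0.77 and -0.89 in NGP (3 and 6 days), and all 4 passed the test.

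Set against the summed fragments of the 9 heavy-strand mRNAs in the same library, MT-ND6 fell by 1.00 and 0.89 on the log2 scale in Kelly and by 0.93 and 0.88 in NGP, with SE of 0.08 to 0.12 and adjusted p between 4.29e-16 and 1.99e-11. When all genes were set against the same sum, 39, 31, 32.5 and 33.5% passed in either direction in these 4 comparisons. As a percentage of the heavy-strand sum, MT-ND6 had a median of 2.42% at 0 h and 1.18% at 6 h in Kelly and of 2.95 and 1.67% in NGP, each over 8 libraries of both treatments and durations. The ranges at 0 and 6 h did not overlap in either line. MT-CO1 makes up a large part of that sum, so its course bears on the comparison.

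Relative to MT-ND5 alone, the sign turned. The log2 change of MT-ND6 minus that of MT-ND5 was 0.37 ± 0.14 (SE; adjusted p = 0.0115) and 0.33 ± 0.14 (adjusted p = 0.0293) in Kelly and 0.35 ± 0.08 (adjusted p = 0.000155) and 0.23 ± 0.08 (adjusted p = 0.0126) in NGP. Per kb, over libraries of both treatments and durations, the ratio of MT-ND6 to MT-ND5 was 0.889 to 1.04 at 0 h and 1.04 to 1.25 at 6 h in Kelly. In NGP it was 1.03 to 1.19 and 1.29 to 1.47. These ranges were apart in NGP and nearly touched in Kelly. The highest Kelly 0 h ratio was 1.035 and the lowest 6 h ratio 1.041, both with STM2457 for 6 days. In Kelly with DMSO the ratio was 0.906 to 0.972 at 0 h and 1.145 to 1.251 at 6 h, without overlap. Relative to MT-CYB, MT-ND4 and MT-CO3 the calls matched those against the whole sum in all 4. Each of these mRNAs fell less than MT-ND6, or rose, in the values above, so this match followed from them and adds no separate evidence. As the junction shown above has no gap and the counting used no strand, RNA running on from MT-ND5 would be counted as MT-ND6, and its part in this likeness was not tested.

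**Figure D3:**
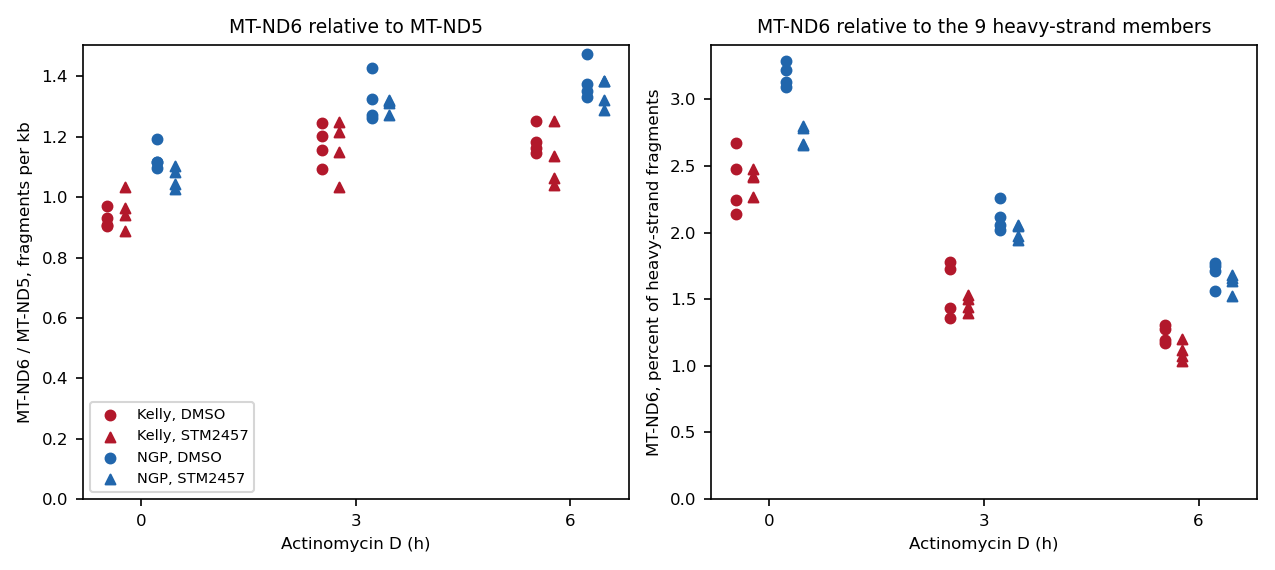
Points are libraries (8 per line and time), with hours of actinomycin D on the x axis, the line by colour and the treatment by shape; the panels give MT-ND6 as a percentage of the heavy-strand sum and the ratio of MT-ND6 to MT-ND5 per kb. MT-ND6 goes down against the heavy-strand sum and up against MT-ND5.

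Before actinomycin D, the called members were slightly lower with STM2457 in Kelly and slightly higher in NGP, although with ERCC scaling all 10 were higher in Kelly after 3 days. In Kelly 7 heavy-strand mRNAs were lower after 6 days, and in NGP 7 were higher after 3 days and 5 after 6 days. The differences lay between -0.32 and 0.45 on the log2 scale, and MT-ND6 passed in none. In Kelly after 3 days only MT-ND1 passed, at 4945 and 4413 CPM in DMSO and 4360 and 3849.9 CPM in STM2457. The groups were separate by a small margin, and the log2 difference was -0.19 ± 0.05 (SE; adjusted p = 0.0329). Thus 1 of 10 members was lower (1.1% of genes) and 0 higher (0.579%) in edgeR's test, where 1 was higher at an unadjusted p under 0.05, MT-CO1 at 0.07.

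In Kelly after 6 days MT-CO2 was at 6875 and 7446 CPM in DMSO and 5607 and 6000.4 CPM in STM2457. The treated libraries lay below both controls, at a log2 difference of -0.30 ± 0.04 (adjusted p = 1.78e-11). MT-CO3, another core subunit of complex IV, was at -0.32 ± 0.04, MT-ND4 at -0.31 ± 0.04, MT-ATP6 at -0.27, MT-ND5 at -0.23, MT-ND1 at -0.22 and MT-CO1 at -0.13. In all, 7 of 10 were lower (1.26% of genes) and 0 higher (2.7%). The summed markers of other cells were also lower in these libraries, at 46.8 and 47.7 CPM in DMSO and 30.1 and 27.0 CPM in STM2457, with 0 of 8 tested markers called and 1 at an unadjusted p under 0.05, and their part was not tested. MT-CYB at -0.14, MT-ND6 at -0.11 and MT-ND2 at -0.01 did not pass.

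In NGP after 3 days MT-CO2 was at 3240 and 3420 CPM in DMSO and 4404 and 4683 CPM in STM2457. Treated libraries were higher without overlap, at a log2 difference of 0.45 ± 0.04 (adjusted p = 3.63e-15). MT-CYB followed at 0.35 ± 0.04, with 3201 and 3399 CPM in DMSO and 4048 and 4370 CPM in STM2457. MT-ND2 at 0.34, MT-ATP6 at 0.33, MT-CO3 at 0.30, MT-ND4 at 0.25 and MT-CO1 at 0.24 completed the 7 of 10 that were higher (1.25% of genes), with 0 lower (2.45%). After 6 days 5 of 10 were higher (4.45%) and 0 lower (3.55%): MT-CO2 at 0.37 ± 0.04, MT-CO3 at 0.22, MT-ND2 at 0.19, MT-CO1 at 0.16 and MT-CYB at 0.11. MT-ND6 was at 0.02 with a 95% interval of -0.08 to 0.13 after 3 days and at -0.07 with one of -0.18 to 0.03 after 6 days. In the last 3 of these 4 conditions, 0 members passed in the opposite direction at an unadjusted p under 0.05 either, and DESeq2 and limma-voom called 0 there in all 4.

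These calls depend on how the spread is estimated. Of the 20 calls, DESeq2 kept 9, limma-voom 19 and edgeR without its abundance trend in the dispersion 4, all in NGP: MT-ND2, MT-CYB and MT-CO2 after 3 days and MT-CO2 after 6 days. Scaled to the spikes, all genes had a median difference between treatments of 0.38 after 3 days and -0.21 after 6 days in Kelly, and of 0.10 and -0.02 in NGP. Under that scaling all 10 members were higher in Kelly after 3 days, with MT-ND1 at 0.21, and all 10 lower after 6 days, while in NGP 9 and 3 were higher. Leaving out 1 library ended the calls of MT-ND1 in Kelly after 3 days (without DMSO replicate 1 or STM2457 replicate 2, down to -0.09), of MT-ND1 and MT-CO1 in Kelly after 6 days (without DMSO replicate 2), and of MT-ND2 and MT-CYB in NGP after 6 days (without DMSO replicate 2 or STM2457 replicate 2, where MT-CYB fell to 0.06).

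**Figure D4:**
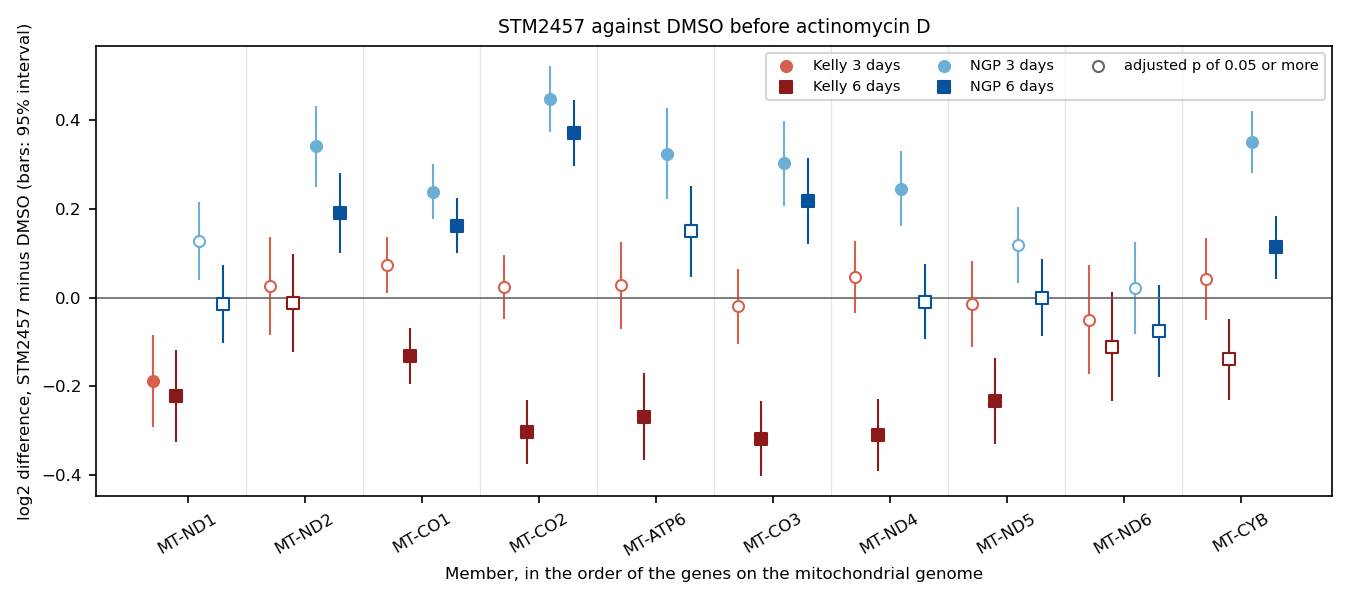
The plot gives the log2 difference of STM2457 from DMSO at 0 h for each member in genome order, with 95% intervals as bars and filled points for an adjusted p under 0.05. Kelly points after 6 days lie under 0 and NGP points after 3 days above it; with ERCC scaling the Kelly points after 3 days are all above 0.

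The opposite directions were tested directly. The STM2457 effect in NGP minus that in Kelly passed for MT-CO2 after 3 days, at 0.42 ± 0.07 (SE; adjusted p = 0.000311), as 1 of 10 (0.0865% of genes). This call was kept by DESeq2 but not by limma-voom, nor with ERCC scaling, where the value was 0.12. After 6 days it passed for 4 of 10 (0.692%): MT-CO2 at 0.69 ± 0.07, MT-CO3 at 0.55 ± 0.09, MT-ATP6 at 0.44 ± 0.11 and MT-CO1 at 0.31 ± 0.07. ERCC scaling kept all 4, while DESeq2 and limma-voom each lost MT-ATP6 and MT-CO1. In edgeR 0 members were lower in NGP at either duration (0.075 and 1.06%), also at an unadjusted p under 0.05 and in DESeq2 and limma-voom. MT-ND6 was at 0.07 and 0.06. Between durations, the effect after 6 days minus that after 3 days was lower for 5 of 10 in Kelly (0.107% of genes) and for 2 of 10 in NGP (1.04%), and higher for 0 in both (0.68 and 1.75%; also 0 at an unadjusted p under 0.05, in DESeq2 and in limma-voom). The Kelly members were MT-ND4 at -0.36, MT-CO2 at -0.33, MT-CO3 at -0.30, MT-ATP6 at -0.30 and MT-CO1 at -0.21, and those of NGP were MT-ND4 at -0.26 and MT-CYB at -0.24. Of these 7 calls DESeq2 kept 3 and edgeR without the dispersion trend 0.

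MT-ND6 was also set against the heavy-strand sum for the STM2457 effect. In Kelly the log2 difference was -0.07 and 0.10, where 0.334 and 5.25% of genes passed, and it did not pass. In NGP it was -0.25 ± 0.08 after 3 days (adjusted p = 0.0336, with 12.2% of genes passing) and -0.20 ± 0.08 after 6 days (adjusted p = 0.157, with 5.97%). The 3 day call was lost without any 1 of its 4 libraries, with no filter on low counts, without the dispersion trend and relative to MT-ND5 (-0.10).

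Whether STM2457 altered the course under actinomycin D was asked as the difference of the 6 h changes between treatments. A positive value means that the level at 6 h, relative to 0 h, was higher with STM2457. In Kelly, MT-ND1 fell further with STM2457 at both durations (though not with ERCC scaling after 6 days, nor as a call in DESeq2 or limma-voom), and in NGP after 6 days MT-ND1, MT-ND2, MT-CYB and MT-ATP6 fell less or rose. In NGP after 3 days MT-ND2 fell less, while MT-ND4, MT-CO1, MT-CO2 and MT-CO3 had lower 6 h changes with STM2457, which neither DESeq2 nor ERCC scaling called. The 0 h libraries of this comparison also gave the STM2457 effect at 0 h, with the opposite sign, so its results are coupled to that effect.

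In NGP after 6 days MT-ND2 was at 3047 and 2850.4 CPM at 0 h and 1115 and 1030.2 CPM at 6 h in DMSO, and at 3244 and 3487 CPM and then 1815 and 2066 CPM in STM2457. At 6 h the treated libraries lay far above the controls. In the same 6 h libraries the summed markers of other cells were at 212 and 204.8 CPM in DMSO and 89.4 and 89.5 CPM in STM2457, with 1 of 7 tested markers called for this comparison, and their part in the result was not tested. The difference of the log2 changes was 0.66 ± 0.07 (SE; adjusted p = 1.94e-12).

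MT-ND1 in the same cells went from 4532 and 4041 to 2014 and 1917 CPM in DMSO and from 4052 and 4430 to 2580 and 2762 CPM in STM2457. The 0 h groups overlapped and the 6 h groups did not. Its difference was 0.46 ± 0.06 (adjusted p = 1.49e-07), that of MT-CYB 0.39 ± 0.05 (adjusted p = 2.27e-08) and that of MT-ATP6 0.29 ± 0.07 (adjusted p = 0.0131), so 4 of 10 were higher (1.36% of genes) and 0 lower (1.18%; 1 at an unadjusted p under 0.05, and 0 in DESeq2 and limma-voom).

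In Kelly after 3 days MT-ND1 with STM2457 went from 4360 and 3849.9 CPM to 356 and 352 CPM. Both 6 h libraries lay below the DMSO ones at 532 and 506 CPM. The difference of the log2 changes was -0.36 ± 0.08 (adjusted p = 0.00351), 1 of 10 members lower (0.0239% of genes), and MT-CYB was the 1 that was higher, at 0.43 ± 0.07 (0.197%; adjusted p = 6.11e-06). With ERCC scaling MT-CYB was at 0.02 and not called, and DESeq2 and limma-voom called neither of the pair. After 6 days only MT-ND1 passed, at -0.37 ± 0.08 (adjusted p = 0.00123), as 1 lower (0.274%) and 0 higher (0.149%; 1 at an unadjusted p under 0.05). In DESeq2 and limma-voom 0 members passed here in either direction, while with ERCC scaling all 10 passed as higher.

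In NGP after 3 days MT-ND2 was at 0.32 ± 0.07, 1 of 10 higher (0.457% of genes), and 4 were lower (0.246%): MT-ND4 at -0.38 ± 0.06, MT-CO3 at -0.27 ± 0.07, MT-CO1 at -0.26 ± 0.05 and MT-CO2 at -0.21 ± 0.05. With ERCC scaling these 4 were at -0.23, -0.12, -0.12 and -0.06 and not called, DESeq2 called 0 of the 4, and limma-voom kept MT-ND4 and MT-CO1. All 4 had been called higher at 0 h with STM2457. At 6 h the mean levels in DMSO and STM2457 were 7894 and 7194 CPM for MT-ND4 and 14528 and 14282 CPM for MT-CO1. They were 4283 and 5065 CPM for MT-CO2 and 3735 and 3811 CPM for MT-CO3. MT-ND6 passed in none of the 4 comparisons, at -0.07, -0.16, 0.05 and 0.19.

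Of these 12 calls DESeq2 kept 4, limma-voom 7 and edgeR without the dispersion trend 3, the last being MT-ND1, MT-ND2 and MT-CYB in NGP after 6 days. Under ERCC scaling 6 stayed and 22 others were added, and MT-ND1 in Kelly after 6 days turned to 0.33. With that scaling 0 members were higher and 8 lower in Kelly after 3 days, and 10 higher and 0 lower after 6 days. In NGP 1 was higher and 0 lower after 3 days, and 10 higher and 0 lower after 6 days. The medians of all genes for this comparison were then -0.37 and 0.70 in Kelly and 0.14 and 0.41 in NGP (3 and 6 days). Leaving out 1 library ended the calls of MT-ND1 in Kelly after 3 days (without DMSO 0 h replicate 2 or STM2457 0 h replicate 1), of MT-CO2 and MT-CO3 in NGP after 3 days (without DMSO 6 h replicate 2 or STM2457 0 h replicate 2, and for MT-CO2 also without DMSO 0 h replicate 1) and of MT-ATP6 in NGP after 6 days (without DMSO 0 h replicate 1). The values then reached -0.27 for MT-ND1, -0.11 for MT-CO2, -0.16 for MT-CO3 and 0.13 for MT-ATP6.

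**Figure D5:**
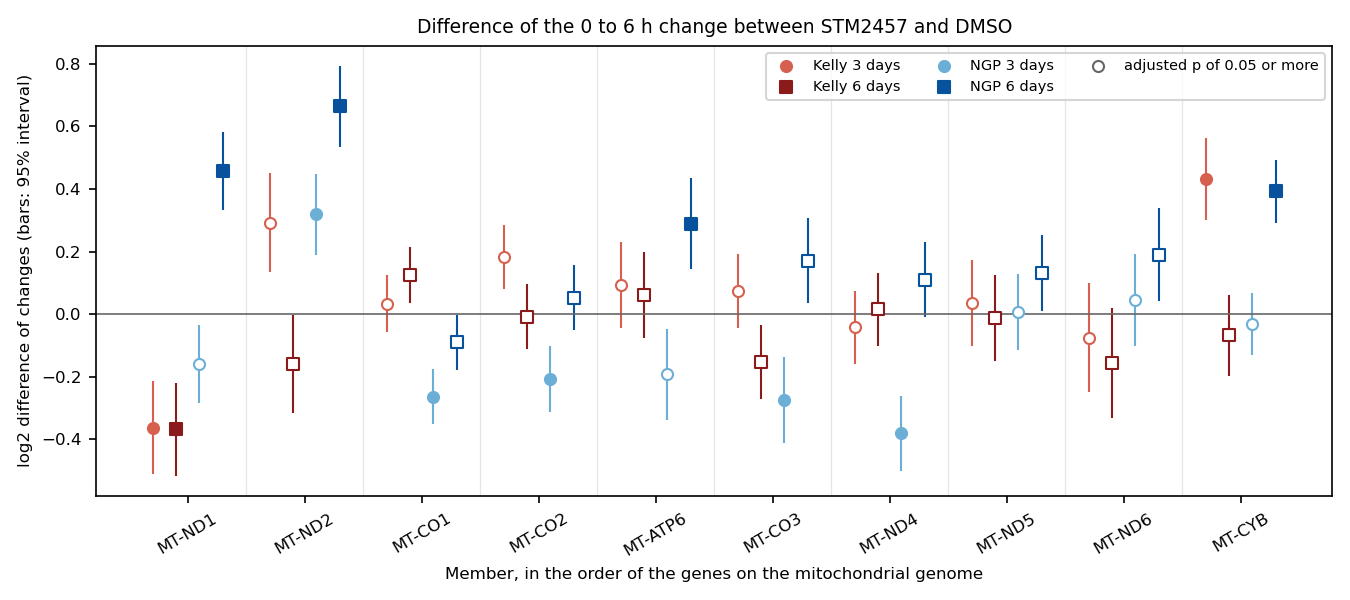
The plot gives the 0 to 6 h log2 change in STM2457 minus that in DMSO for each member in genome order, with 95% intervals as bars and filled points for an adjusted p under 0.05. MT-ND1 is at -0.36 and -0.37 in Kelly (the latter 0.33 with ERCC scaling) and at 0.46 in NGP after 6 days.

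Nuclear genes of the same system were read from lists. Of 19 genes for mitochondrial RNA processing, 1 passed the test of STM2457 at 0 h in each of 3 conditions, always as lower. Beside it, 1.26% of all genes were lower in Kelly after 6 days, 2.45% in NGP after 3 days and 3.55% in NGP after 6 days (with 4.45% higher there). A single call in a list of 19 is not read as a result about the list. LRPPRC was lower in Kelly after 6 days at -0.30 and in NGP after 6 days at -0.21, and its partner SLIRP was lower in NGP after 3 days at -0.57. Of 10 genes for mitochondrial transcription, the topoisomerase TOP1MT passed in NGP after 6 days, at -0.52. Of 22 nuclear subunits of the complexes, 1, 2, 6 and 1 were lower in the 4 conditions (Kelly 3 and 6 days, NGP 3 and 6 days) and 0 higher, beside 1.1, 1.26, 2.45 and 3.55% of all genes lower, at medians of -0.16, -0.15, -0.25 and -0.01. In NGP after 3 days these 6 were CYC1 of complex III at -0.72, UQCRC1 at -0.49, COX6C at -0.44, COX7C at -0.37, ATP5F1B at -0.34 and ATP5F1A at -0.26, while 7 mitochondrial members were higher in the same libraries. COL1A1 was lower there too, at -0.57, and the summed markers of other cells were at 103 and 82.3 CPM in DMSO and 79.2 and 76.5 CPM in STM2457. Their part in the result was not tested.

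Over 6 h of actinomycin D in DMSO, 14, 14, 15 and 16 of the 22 nuclear subunits rose (14.4, 13.2, 19 and 18% of all genes did) and 2, 1, 2 and 1 fell (15.6, 13.3, 18.4 and 18.7%), with medians of 0.65, 0.53, 0.55 and 0.64 beside -1.08, -0.46, -0.01 and -0.20 for the mitochondrial members. UQCRFS1, the Rieske protein of complex III, fell in all 4, by 1.73 in Kelly and 1.99 in NGP on the log2 scale after 3 days and by 1.68 in NGP after 6 days. Of the 10 genes for mitochondrial transcription, 3, 4, 8 and 3 passed in either direction. Of the 19 for mitochondrial RNA processing 9, 9, 8 and 10 did, beside the shares of all genes given above. Among them TFB2M, the initiation factor of mitochondrial transcription, fell by 1.71, 2.47, 1.84 and 2.06, and LRPPRC rose by 0.52, 0.23, 0.55 and 0.18. TRMT10C, a subunit of mitochondrial RNase P, fell by 2.29, 2.02, 1.40 and 1.17.

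Across the 48 libraries, after centring each line, the log2 levels of MT-ND5 and MT-ND6 had a Pearson r of 0.987 and those of MT-ND1 and MT-ND6 one of 0.965. MT-ND5 and MT-CO1 had -0.527. Of 8452 genes compared by the same measure, the nuclear genes most like MT-ND6 were SLC38A2 at 0.948, RND3 at 0.947 and CHD1 at 0.943, and those most like the mean of the 9 heavy-strand mRNAs were ARHGAP21 at 0.851, CSNK1G1 at 0.838 and TCF20 at 0.829. All these points share libraries, depth scaling and the actinomycin D course, so the values are descriptions.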

How the data were processed

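Fragments per gene were counted in 48 poly(A)-selected libraries of cell line RNA. Per the submitters' processing notes, reads were checked with FastQC 0.11.5, trimmed with Trimmomatic 0.36 and aligned to GRCh38 (hg38) with HISAT2 2.1.0. Per the file headers, the authors made the deposited counts with featureCounts 1.5.3 (Subread) on paired fragments over exons by gene name, with GENCODE release 33 protein-coding genes and 92 ERCC sequences and with no strand option. No option for reads with several matches was set either, so reads shared with nuclear copies may be missing. Sequences came from GRCh38 with GENCODE release 44.

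From these counts, edgeR 4.0.16 (R 4.3.3) gave TMM factors, CPM and quasi-likelihood tests, in 1 fit per line over its 12 groups, with genes kept by filterByExpr (minimum count 10) and a Benjamini-Hochberg adjusted p under 0.05 as the call. Tests covered 16759 genes in Kelly, 14661 in NGP and 17343 in the joint fit of both lines. MT-ND6 was compared with the heavy-strand mRNAs by using their summed counts as the library size. Nuclear copies were searched with BLAST 2.17.0. All members were named in the text. The members and gene lists were chosen with earlier results of these data known, and the test of the 6 h change between lines was added after values were seen. The edgeR fit of each line was tested on simulated data for STM2457 at 0 h after 3 days, where genes changed 2-fold were recovered at 51% in Kelly and 57% in NGP, and 6.11 and 2.74% of calls were false. The joint fit, DESeq2 and limma-voom were not tested this way. Simulated counts took their spread from edgeR's own estimates, and the changed genes were drawn over a wide range of levels. These rates therefore do not cover the smaller changes of the highly counted members. Alternatives were other scaling (RLE factors, library size alone, ERCC spikes, TMM without mitochondrial genes), no filter, no dispersion trend, DESeq2 1.42.0, limma-voom 3.58.1, libraries of 1 duration only, a replicate block and leaving out each library.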

Additional observations from a re-analysis of the deposited data

Results flagged for a closer look

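The results below differ between lines or between durations by a test of the difference itself (an interaction in edgeR, adjusted over all genes). Groups of 2 libraries were too small for a check of single outlying libraries.

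In the 6 h change in DMSO after 3 days, NGP minus Kelly was 2.30 on the log2 scale for MT-ND1 (adjusted p = 1.33e-30), 1.34 for MT-CYB, 0.98 for MT-CO3, 0.85 for MT-ND4, 0.84 for MT-ND2, 0.82 for MT-ND5, 0.80 for MT-ND6, 0.68 for MT-CO2, 0.64 for MT-ATP6 and 0.43 for MT-CO1. After 6 days it was 1.55 for MT-ND1 (adjusted p = 5.70e-21), 0.50 for MT-ND4, 0.47 for MT-ND5, 0.44 for MT-CO1, 0.41 for MT-CO3, 0.39 for MT-CO2, 0.37 for MT-ND6 and 0.26 for MT-CYB. MT-ND1 had the largest value of the members at both durations. This comparison was added after its values had been seen.

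In the STM2457 effect at 0 h, NGP minus Kelly was 0.42 for MT-CO2 after 3 days, but 0.12 and not called with ERCC scaling, and not called by limma-voom. After 6 days it was 0.69 for MT-CO2, 0.55 for MT-CO3, 0.44 for MT-ATP6 and 0.31 for MT-CO1.

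The STM2457 effect after 6 days minus that after 3 days was -0.36 for MT-ND4, -0.33 for MT-CO2, -0.30 for MT-CO3, -0.30 for MT-ATP6 and -0.21 for MT-CO1 in Kelly, and -0.26 for MT-ND4 and -0.24 for MT-CYB in NGP.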

How the results depend on the processing

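Scaling mattered most, and values are log2. Under ERCC scaling the median of the heavy-strand mRNAs moved as follows. For NGP minus Kelly of the STM2457 effect it went from 0.31 to 0.0069 (3 days), from 0.31 to 0.51 (6 days). For NGP minus Kelly at 0 h it went from -0.44 to -0.033 (3 days), from -0.36 to -0.51 (6 days). For NGP minus Kelly of the 6 h change it went from 0.84 to 0.45 (3 days), from 0.41 to 0.60 (6 days). For STM2457 at 0 h it went from 0.027 to 0.43 (Kelly 3 d), from -0.23 to -0.49 (Kelly 6 d), from 0.30 to 0.40 (NGP 3 d). For DMSO, 3 minus 0 h, it went from -0.22 to -0.80 (Kelly 3 d), from -0.079 to -0.76 (Kelly 6 d), from 0.29 to -0.085 (NGP 3 d), from -0.12 to -0.58 (NGP 6 d). For DMSO, 6 minus 0 h, it went from -0.65 to -1.09 (Kelly 3 d), from -0.37 to -1.65 (Kelly 6 d), from 0.16 to -0.64 (NGP 3 d), from -0.068 to -1.12 (NGP 6 d). For STM2457, 3 minus 0 h, it went from -0.097 to -0.66 (Kelly 3 d), from -0.064 to -0.30 (Kelly 6 d), from 0.11 to -0.44 (NGP 3 d), from 0.021 to -0.33 (NGP 6 d). For STM2457, 6 minus 0 h, it went from -0.58 to -1.42 (Kelly 3 d), from -0.37 to -0.95 (Kelly 6 d), from -0.028 to -0.68 (NGP 3 d), from 0.22 to -0.41 (NGP 6 d). For STM2457 minus DMSO of the 6 h change it went from 0.074 to -0.33 (Kelly 3 d), from -0.011 to 0.69 (Kelly 6 d), from -0.19 to -0.043 (NGP 3 d), from 0.17 to 0.60 (NGP 6 d). For the duration difference of STM2457 it went from -0.22 to -0.87 (Kelly), from -0.14 to -0.28 (NGP). Single members turned their sign, and the cause was not tested. In NGP minus Kelly at 0 h (3 days) the values were MT-ND4 0.14, MT-ND5 0.026, MT-ND6 0.26, MT-CO3 0.28. Within STM2457 at 0 h (Kelly 3 d) the values were MT-ND1 0.21, MT-ND5 0.39, MT-ND6 0.35, MT-CO3 0.38. In DMSO, 6 minus 0 h, (Kelly 3 d) the values were MT-CO1 -0.23. Within DMSO, 6 minus 0 h, (Kelly 6 d) the values were MT-CO1 -1.16. In DMSO, 6 minus 0 h, (NGP 3 d) the values were MT-ND4 -0.29, MT-CO1 -0.18, MT-CO2 -0.44, MT-CO3 -0.48, MT-ATP6 -0.64. Within DMSO, 6 minus 0 h, (NGP 6 d) the values were MT-ND4 -0.73, MT-CO1 -0.53, MT-CO2 -0.78, MT-CO3 -0.90. In STM2457 minus DMSO of the 6 h change (Kelly 3 d) the values were MT-ND5 -0.37, MT-CO1 -0.37, MT-CO2 -0.22, MT-CO3 -0.33, MT-ATP6 -0.31. Within STM2457 minus DMSO of the 6 h change (Kelly 6 d) the values were MT-ND1 0.33, MT-ND2 0.55, MT-ND5 0.69, MT-ND6 0.55, MT-CYB 0.64, MT-CO2 0.70, MT-CO3 0.55. In STM2457 minus DMSO of the 6 h change (NGP 6 d) the values were MT-CO1 0.34.

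By library size alone the median moved too. For DMSO, 3 minus 0 h, it went from -0.22 to -0.36 (Kelly 3 d), from -0.079 to -0.23 (Kelly 6 d), from 0.29 to 0.14 (NGP 3 d), from -0.12 to -0.24 (NGP 6 d). For DMSO, 6 minus 0 h, it went from -0.65 to -0.85 (Kelly 3 d), from -0.37 to -0.55 (Kelly 6 d), from 0.16 to -0.087 (NGP 3 d), from -0.068 to -0.26 (NGP 6 d). For STM2457, 6 minus 0 h, it went from -0.58 to -0.71 (Kelly 3 d), from -0.37 to -0.50 (Kelly 6 d), from -0.028 to -0.22 (NGP 3 d), from 0.22 to 0.054 (NGP 6 d). For STM2457, 3 minus 0 h, it went from -0.064 to -0.17 (Kelly 6 d), from 0.11 to -0.0035 (NGP 3 d), from 0.021 to -0.088 (NGP 6 d). In DMSO, 6 minus 0 h, (Kelly 6 d) the values were MT-CO1 -0.064. Within DMSO, 6 minus 0 h, (NGP 3 d) the values were MT-ATP6 -0.087. In DMSO, 6 minus 0 h, (NGP 6 d) the values were MT-CO3 -0.036. With limma-voom the basal median of NGP minus Kelly at 6 days was -0.27. With ERCC left out of the total, the share in Kelly DMSO 6 days at 3 h was 5.31%.

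Leaving out 1 library gave these ranges of the median. For STM2457 minus DMSO of the 6 h change it ran from -0.059 to 0.15 (Kelly 3 d), from -0.18 to 0.089 (Kelly 6 d), from -0.25 to -0.11 (NGP 3 d), from 0.081 to 0.26 (NGP 6 d). For DMSO, 3 minus 0 h, it ran from -0.18 to 0.010 (Kelly 6 d), from 0.18 to 0.34 (NGP 3 d), from -0.26 to 0.042 (NGP 6 d). For DMSO, 6 minus 0 h, it ran from -0.45 to -0.26 (Kelly 6 d), from -0.21 to 0.092 (NGP 6 d). For STM2457, 3 minus 0 h, it ran from -0.18 to 0.011 (Kelly 6 d), from 0.031 to 0.19 (NGP 3 d). For STM2457, 6 minus 0 h, it ran from -0.51 to -0.25 (Kelly 6 d), from -0.11 to 0.053 (NGP 3 d), from 0.14 to 0.30 (NGP 6 d). For the duration difference of STM2457 it ran from -0.32 to -0.18 (Kelly), from -0.22 to -0.017 (NGP). For STM2457 at 0 h it ran from 0.21 to 0.39 (NGP 3 d), from 0.057 to 0.24 (NGP 6 d). In STM2457 at 0 h, MT-ND4 ran from -0.13 to 0.12 (NGP 6 d) and MT-ND6 against the heavy-strand sum from -0.28 to -0.22 (NGP 3 d). Of 82 called member results, 70 kept their call in every refit of this kind and 12 did not. The 36 calls of the 6 h change within STM2457 and the calls of 3 h changes were not among these 82. Leaving out libraries was not run for the comparisons between lines.

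MT-ND6 relative to MT-ND5 instead of the heavy-strand sum turned to 0.37 and 0.33 in Kelly and 0.35 and 0.23 in NGP over 6 h (3 and 6 days), and its STM2457 effect in NGP after 3 days was -0.097, not called. That effect against the sum kept its value of -0.25 but not its call with no filter and with no dispersion trend. After 6 days it became a call at -0.20 with DESeq2 and at -0.20 with limma-voom. Same-numbered libraries of different groups did not deviate together, with correlations of -0.0444 to 0.0297 over 66 pairs of groups in each line, none over 0.1. With the replicate block all 38 calls of the 6 h change in DMSO and all 20 of STM2457 at 0 h remained, with 1 and 2 calls added. All 12 calls of the difference of 6 h changes remained too, with 3 added. RLE factors and TMM without mitochondrial genes moved no median beyond the replicate spread. Fitting libraries of 1 duration alone cannot give the comparison of durations. With 2 libraries a group, the replicate spread rather than the fragments counted limits the precision of these members.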
